A study of Homo sapiens with 6 samples.

Results

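The genes described here encode the coat and the neck of caveolae. They were read in 6 RNA sequencing libraries labelled MDA-MB-468, a triple-negative, basal-like human breast cancer cell line. They were chosen by a list of names: the caveolins CAV1, CAV2 and CAV3, the cavins CAVIN1, CAVIN2 and CAVIN3, and the neck genes EHD2, PACSIN2 and PACSIN3, 9 genes of 56505 rows in the count table. The cavins stood in it under their older names PTRF, SDPR and PRKCDBP. All 9 passed the filter on low counts, as did 19567 genes in all. Of the libraries, 3 came from cells with a control hairpin (pLK0-shControl, here shControl), and 3 from cells with a hairpin labelled shCK5-22 (here shCK5), directed at cytokeratin 5, the product of KRT5. Both groups thus carried a pLK0 hairpin construct, and the cells were kept in medium with serum, with no treatment given in the labels. One KRT5 hairpin was sequenced. The labels name no separate cultures, so p-values describe the spread between libraries, which may be technical.

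Caveolae are small flask-shaped pits of the plasma membrane, rich in cholesterol and sphingomyelin, that buffer membrane tension and take part in signalling and uptake. Caveolins are hairpin-shaped membrane proteins that form the inner scaffold, and cavins are cytosolic proteins that assemble around it as an outer coat. EHD2, an ATPase, and the F-BAR proteins PACSIN2 and PACSIN3 sit at the neck, where they restrain or bend the membrane. In the mammary gland, CAV1 is known as a marker of basal and myoepithelial cells more than of luminal cells.

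The 2 groups of libraries stood far apart, and part of the contrast went against the cell line named. KRT5 fell from 2044 ± 23.3 to 16.4 ± 0.845 CPM (mean ± SD, n = 3), the count scaled to a common library total. RB1 and SMAD4, known as deleted in MDA-MB-468, had 2.00 ± 0.136 and 0.235 ± 0.138 CPM in shControl but 101.0 ± 2.16 and 16.9 ± 0.547 CPM in shCK5. Whether a difference reported here follows from the loss of KRT5 or from different cells cannot be told apart. Total counts were 68810882 to 83594772 per library. Of all genes tested, 82.7% were called by edgeR at an adjusted p under 0.05, 40.9% as higher and 41.7% as lower in shCK5, and in 84.2% every library of one group lay above every library of the other. A call alone therefore sets no gene apart here, and the size of each change is what follows. All 7 epithelial markers examined (EPCAM, CDH1, KRT8, KRT18, KRT19, KRT5 and KRT14) were lower in shCK5, with summed levels of 6938 to 7056 CPM in shControl and 1373 to 1399 CPM in shCK5. KRT5, the hairpin target, counts among these 7 and made 2044 CPM of the shControl sum and 16.4 CPM of the shCK5 sum. VIM, the mesenchymal filament gene vimentin, rose from 6.91 ± 0.48 to 987.2 ± 13 CPM, and EGFR fell from 2895 ± 44.3 to 734.6 ± 12.1 CPM. The part of these differences in the results that follow was not tested.

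Of the 9 caveolae genes, 6 rose and 3 fell in shCK5, and none of the 9 had overlapping groups. Over all genes tested, 40.9% were called higher and 41.7% lower, and 84.2% had groups that did not overlap. The same shares belong beside the counts of neighbours and list genes given below. The median log2 fold change of the 9 was 1.92, against -0.02 over all genes tested. The genes that rose were CAV1, CAV2, all 3 cavins and EHD2. The genes that fell were CAV3 and both pacsins. A lower level in bulk RNA can mean fewer expressing cells or less RNA in each, which these data cannot separate. A positive log2 fold change means a higher level in shCK5, and adjusted p-values come from edgeR, fitted over all genes tested.

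**Figure D1:**
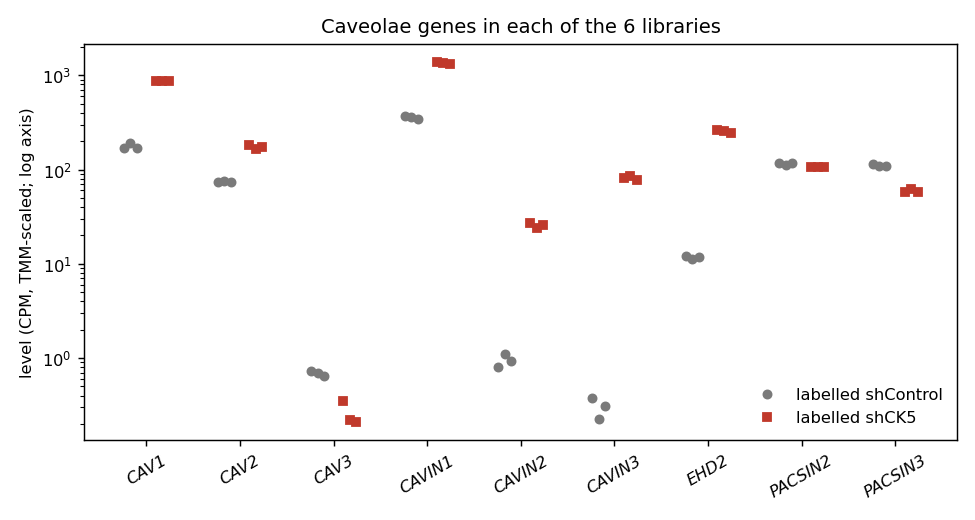
Level of each caveolae gene in every library (vertical axis, CPM, log scale), with circles for the 3 libraries labelled shControl and squares for the 3 labelled shCK5. CAVIN3 moved from under 0.4 CPM to over 77 CPM, while PACSIN2 stayed between 105.7 and 118.6 CPM in all 6 libraries.

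The main caveolin, CAV1, was 4.9-fold higher in shCK5. CAV1 (ENSG00000105974.11, GRCh38 chromosome 7, 116524785 to 116561184, plus strand) encodes the scaffold protein without which non-muscle cells form no caveolae. Its level was 167.9, 193.1 and 170.3 CPM in shControl replicates 1, 2 and 3, and 869.6, 862.6 and 874.2 CPM in shCK5. The shControl values were the more scattered, with replicate 2 the highest, and the lowest shCK5 value stood far above all of them. The change on the log2 scale was 2.29 (SE 0.0374, adjusted p = 8.49e-26), and 20.1% of tested genes had a larger change in either direction.

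CAV2, which needs CAV1 to reach the plasma membrane and is not itself required for the pits, rose less. CAV2 (ENSG00000105971.14, chromosome 7, 116287380 to 116508541, plus strand) had 73.0, 75.8 and 73.5 CPM in shControl and 181, 165.7 and 171.6 CPM in shCK5. All 3 shCK5 libraries were above all 3 controls, at a little over the control level doubled. Its log2 fold change was 1.22 (SE 0.0329, adjusted p = 3.18e-21), a change exceeded by 37.5% of tested genes.

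CAV1 and CAV2 are neighbours in the annotation, in the same orientation, with 16.2 kb between the end of CAV2 and the start of CAV1. Because they rose together, the 250 bases before the most upstream RefSeq start of each are shown (RefSeq, GRCh38.p14; chr7:116524759-116525008, plus strand for CAV1 and chr7:116499488-116499737, plus strand for CAV2). Both starts lie inside the gene bodies given above, which begin further upstream in GENCODE. Capitals mark the GC box, GGGCGG on either strand, a sequence bound by SP-family factors.
CAV1: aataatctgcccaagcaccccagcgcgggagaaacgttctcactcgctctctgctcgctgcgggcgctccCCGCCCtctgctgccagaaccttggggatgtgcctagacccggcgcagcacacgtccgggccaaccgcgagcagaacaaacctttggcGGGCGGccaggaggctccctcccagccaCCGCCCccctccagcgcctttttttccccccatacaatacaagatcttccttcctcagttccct
CAV2: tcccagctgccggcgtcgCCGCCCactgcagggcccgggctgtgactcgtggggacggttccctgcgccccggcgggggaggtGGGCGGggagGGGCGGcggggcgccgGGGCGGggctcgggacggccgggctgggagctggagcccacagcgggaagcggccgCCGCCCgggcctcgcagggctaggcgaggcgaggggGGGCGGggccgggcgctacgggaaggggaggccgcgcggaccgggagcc
The CAV1 window held 3 such matches, at 180, 92 and 64 bases before the start, and the CAV2 window held 6. A GC box was present in 42.2% of 27326 RefSeq promoter windows of this length, so its presence is common. An AP-1 site (TGANTCA), a TEAD site (GGAATG) and a ZEB or SNAI E-box (CACCTG) were searched on both strands in the same way, and no match lay in either window. These are matches of letters only.

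The other tested protein-coding genes within 500 kb of CAV1 changed less than CAV1 did. There were 4 of them, of which 3 were higher and 1 lower in shCK5, with a median log2 fold change of 0.63. The nearest were TES, upstream of CAV2, which rose from 1.58 ± 0.0979 to 3.24 ± 0.31 CPM (log2 fold change 1.04), and the receptor tyrosine kinase gene MET, which rose from 194.3 ± 14.2 to 302.0 ± 3.14 CPM (0.64). CAPZA2 rose by a like amount (0.63), and ST7 was the 1 that fell (-0.17); these last 2 are named after their values were seen.

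CAV3, the caveolin of skeletal and cardiac muscle, was near the lower limit of measurement and fell. CAV3 (ENSG00000182533.6, chromosome 3, 8733800 to 8841808, plus strand) had 54, 56 and 46 counts in shControl and 28, 17 and 15 counts in shCK5. That is 0.725, 0.702 and 0.641 CPM against 0.353, 0.223 and 0.207 CPM, with all shCK5 libraries below all controls. The log2 fold change of -1.39 had the largest error of the 9 genes (SE 0.326, adjusted p = 0.000409). SSUH2, which overlaps CAV3 on the opposite strand, fell from 2.33 ± 0.25 to 0.580 ± 0.189 CPM, and RAD18, which overlaps the annotated 3′ part, rose from 29.9 ± 0.685 to 78.2 ± 1.7 CPM. Further on the right, SRGAP3 fell from 9.76 ± 0.579 to 0.314 ± 0.0775 CPM, a larger change than that of CAV3. SRGAP3 lies 139 kb beyond CAV3, without overlap. With no strand setting stated, whether reads of SSUH2 or RAD18 entered the CAV3 count was not tested. Muscle markers were sparse: MYOD1, MYF5 and TNNT3 had no count in any library, and 7 of 10 stayed below 1 CPM in all 6. Their summed level was 65.6 to 68.4 CPM in shControl and 65.3 to 69.3 CPM in shCK5, nearly all from TNNT1 and MB, which went opposite ways. Of 4 muscle markers tested, TNNT1 rose from 36.1 ± 2 to 63.3 ± 2.09 CPM, while MB fell from 27.5 ± 0.716 to 3.09 ± 0.179 CPM, ACTA1 from 2.93 ± 0.13 to 0.253 ± 0.114 CPM and CKM from 0.473 ± 0.172 to 0.0786 ± 0.0249 CPM. Their part in the fall of CAV3 was not tested.

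Among cavins, the core coat gene CAVIN1 was already abundant in shControl and rose 3.77-fold. CAVIN1 (PTRF in the table; ENSG00000177469.12, chromosome 17, 42402452 to 42423517, minus strand) encodes the cavin that binds the caveolin scaffold and recruits the other cavins. It had 366.4, 361.9 and 346.9 CPM in shControl and 1383, 1356 and 1320 CPM in shCK5. The groups were tight and widely separated. On the log2 scale the change was 1.92 (SE 0.0279, adjusted p = 8.40e-27), exceeded in size by 24.4% of tested genes.

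CAVIN2 and CAVIN3, the cavins that join CAVIN1 in separate subcomplexes, went from traces to clear expression. CAVIN2 (SDPR in the table; ENSG00000168497.4, chromosome 2, 191834302 to 191847255, minus strand), which is known to promote membrane curvature, had 0.805, 1.09 and 0.920 CPM in shControl and 26.8, 24.2 and 25.6 CPM in shCK5. This was 27.1-fold higher (log2 fold change 4.76, SE 0.0927, adjusted p = 3.41e-24), a size exceeded by 6.03% of tested genes. An antisense gene that overlaps its start, AC098617.1, had only 14 counts in shControl and 68 in shCK5 in all.

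CAVIN3 showed the largest change of the 9. CAVIN3 (PRKCDBP in the table; ENSG00000170955.9, chromosome 11, 6318946 to 6320647, minus strand) encodes a protein kinase C delta binding protein that links caveolae to signalling. It had 28, 18 and 22 counts in the shControl libraries and 6393, 6590 and 5616 counts in shCK5. On the CPM scale these were 0.376, 0.226 and 0.307 against 80.5, 86.4 and 77.7. The gene was thus close to undetected in every control and moderately expressed in every shCK5 library. The difference was 270-fold (log2 fold change 8.07, SE 0.0873, adjusted p = 2.35e-29), and 1.17% of tested genes changed more. AC068733.3, annotated on the opposite strand, overlaps CAVIN3 and has no counts under that name here. Opposite-strand genes without counts under their names also overlap CAV1 (AC006159.1) and CAV2 (AC073130.2). With no strand setting stated, whether reads of such genes entered the member counts was not tested.

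Genes around the cavins had smaller median changes than the cavins themselves. Near CAVIN1, 33 protein-coding genes were tested within 500 kb, of which 20 rose and 4 fell, while 9 did not pass (median change 0.52 on the log2 scale). The nearest on one side, STAT3, fell from 450.6 ± 7.6 to 264.1 ± 3.87 CPM, and the nearest on the other, ATP6V0A1, did not pass (55.3 ± 2.21 and 54.3 ± 1.35 CPM). Near CAVIN2 there were 3, of which 2 rose and 1 fell (median 0.68), the nearest being NABP1 (0.68) and TMEFF2 (1.14), both higher. Near CAVIN3 there were 17, of which 13 rose, 3 fell and 1 did not pass (median 0.92). SMPD1, the acid sphingomyelinase gene next to CAVIN3, rose from 11.6 ± 0.101 to 44.7 ± 1.43 CPM, and CNGA4 on the other side, with 24 and 35 counts in all, did not pass.

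The promoter of CAVIN2 is shown because CAVIN2 rose much more than its partner CAVIN1 (RefSeq, GRCh38.p14, chr2:191847089-191847338, minus strand, the 250 bases before the start). Capitals here mark a TEAD site.
CAVIN2: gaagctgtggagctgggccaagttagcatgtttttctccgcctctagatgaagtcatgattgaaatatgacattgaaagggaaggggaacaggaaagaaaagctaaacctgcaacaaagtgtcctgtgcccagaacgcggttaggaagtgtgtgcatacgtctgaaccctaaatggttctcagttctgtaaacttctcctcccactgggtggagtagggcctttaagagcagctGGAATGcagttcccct
Like the CAV3 window and unlike those of CAV1 and CAV2, it held no GC box. It held 1 TEAD site, 16 bases before the start. A TEAD site was present in 12% of all promoter windows. No match to the AP-1 site or the E-box was found in any of the 6 member windows at hand, against 6.57% and 17.5% of all windows.

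At the neck, EHD2 rose while the pacsins did not. EHD2 (ENSG00000024422.11, chromosome 19, 47713343 to 47743134, plus strand) encodes a dynamin-related ATPase that forms rings around the neck and keeps caveolae at the surface. Its level was 11.99, 11.4 and 11.9 CPM in shControl and 264.9, 253.9 and 243.1 CPM in shCK5. Spread within each group was a few percent of the mean, and the groups lay 21.6-fold apart (log2 fold change 4.43, SE 0.0398, adjusted p = 7.21e-31). A larger change was seen in 7.35% of tested genes. A long noncoding RNA gene on the same strand, AC010519.1, overlaps EHD2 and has no counts under that name here. Whether its reads entered the EHD2 count was not tested. Most of its chromosomal neighbours went the other way: of 15 tested protein-coding genes within 500 kb, 12 were lower and 2 higher, with a median of -0.54. NOP53, only 2.39 kb beyond its 3′ end, fell from 140.2 ± 1.23 to 104.7 ± 2.45 CPM, and NAPA on the other side from 21.5 ± 0.314 to 17.2 ± 0.864 CPM.

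The window before the EHD2 start is shown as that of the neck gene with the largest change (RefSeq, GRCh38.p14, chr19:47713172-47713421, plus strand). Capitals mark its 1 GC box, 57 bases before the start and on the opposite strand.
EHD2: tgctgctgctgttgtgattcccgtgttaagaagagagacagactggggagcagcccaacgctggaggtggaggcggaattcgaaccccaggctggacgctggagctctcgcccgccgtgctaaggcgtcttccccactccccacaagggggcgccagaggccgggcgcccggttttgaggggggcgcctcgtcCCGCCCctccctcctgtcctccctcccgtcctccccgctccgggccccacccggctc
No TEAD site was found in it.

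PACSIN2, the widely expressed pacsin, changed least of all members. PACSIN2 (ENSG00000100266.18, chromosome 22, 42835412 to 43015145, minus strand) encodes an F-BAR protein that shapes caveolae and recruits dynamin. It had 115.9, 112.3 and 118.6 CPM in shControl and 106.3, 107.0 and 105.7 CPM in shCK5. The groups did not overlap, but the fall was 1.09-fold (log2 fold change -0.12, SE 0.0294, adjusted p = 0.000647), and 91.7% of tested genes changed more. Scaled by library size alone, which moved the median of all genes to -0.16, the value for PACSIN2 was -0.26. Its 3′ end overlaps ARFGAP3 on the same strand, which did not pass the test (35.1 ± 0.922 and 36.6 ± 0.804 CPM). The nearest genes beyond moved far more than PACSIN2 did: A4GALT rose from 2.78 ± 0.454 to 21.5 ± 1.52 CPM and TTLL1 fell from 8.75 ± 0.597 to 1.90 ± 0.0578 CPM.

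PACSIN3, the pacsin best known from muscle, fell 1.87-fold. PACSIN3 (ENSG00000165912.15, chromosome 11, 47177525 to 47186443, minus strand) had 113.2, 110.0 and 108.6 CPM in shControl and 58.4, 61.5 and 57.3 CPM in shCK5. Every shCK5 library was lower than every control. Its log2 fold change was -0.91 (SE 0.0331, adjusted p = 1.96e-18), a change exceeded by 47.8% of tested genes. ARFGAP2, an Arf GTPase-activating protein gene 0.4 kb away, fell from 120.8 ± 1.22 to 51.2 ± 0.652 CPM, and DDB2 on the other side did not pass (37.4 ± 1.64 and 37.9 ± 2.15 CPM). Of 19 tested neighbours of PACSIN3, 7 rose, 8 fell and 4 did not pass (median 0.02), and of 13 around PACSIN2, 3 rose, 9 fell and 1 did not pass (median -0.53).

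**Figure D2:**
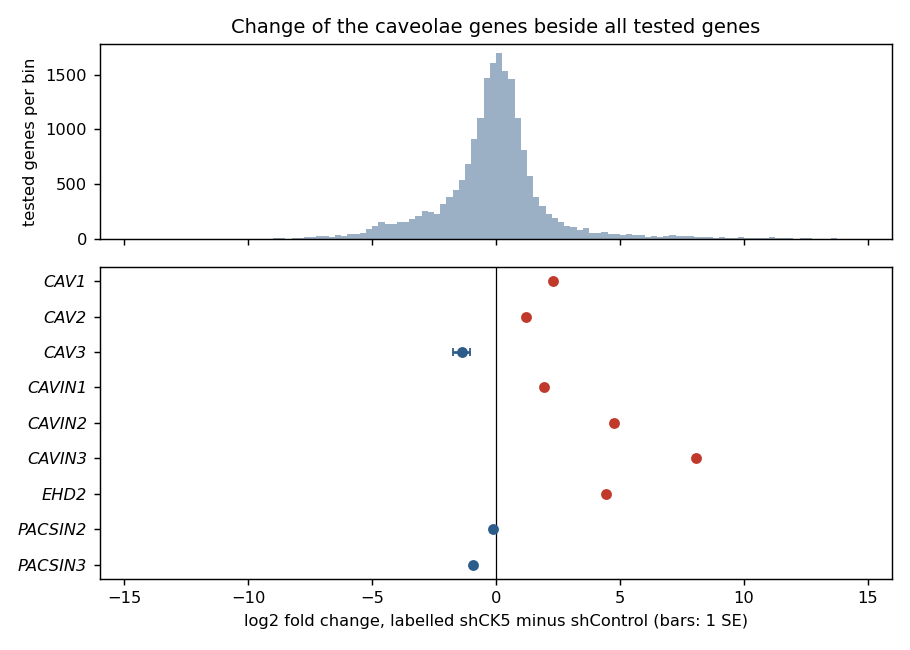
Upper panel, number of tested genes by log2 fold change (labelled shCK5 minus shControl); lower panel, each caveolae gene on the same axis with a bar of 1 SE. CAVIN3 (8.07), CAVIN2 (4.76) and EHD2 (4.43) lie in the sparse right tail, and PACSIN2 (-0.12) in the central peak.

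Levels were then compared between genes per length, as RPKM, the CPM value divided by the length of the merged exons in kilobases. In shControl the order was CAVIN1 (93.6 ± 2.68 RPKM), CAV1 (43.4 ± 3.41), PACSIN3 (40.2 ± 0.867), PACSIN2 (25.4 ± 0.695), CAV2 (10.7 ± 0.217), EHD2 (3.00 ± 0.0832), CAV3 (0.352 ± 0.0222), CAVIN2 (0.291 ± 0.0445) and CAVIN3 (0.181 ± 0.045). CAV1 and PACSIN3 met at 41.1 RPKM and did not differ beyond their spread. CAV3 (0.328 to 0.371 RPKM) and CAVIN2 (0.249 to 0.338) overlapped between libraries, with CAV3 the higher within each. In shCK5 the order was CAVIN1 (353 ± 8.19 RPKM), CAV1 (213 ± 1.43), EHD2 (64.7 ± 2.78), CAVIN3 (48.8 ± 2.68), CAV2 (24.9 ± 1.12), PACSIN2 (23.3 ± 0.142), PACSIN3 (21.5 ± 0.784), CAVIN2 (7.91 ± 0.404) and CAV3 (0.133 ± 0.0408). CAVIN1 and CAV1 thus led in both groups. EHD2 moved from rank 6 to rank 3 and CAVIN3 from rank 9 to rank 4. The ranks were equal when the longest transcript served as length, although CAV2, whose merged exons are 6926 bases long against 3301 for its longest transcript, then had 22.5 and 52.3 RPKM.

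**Figure D3:**
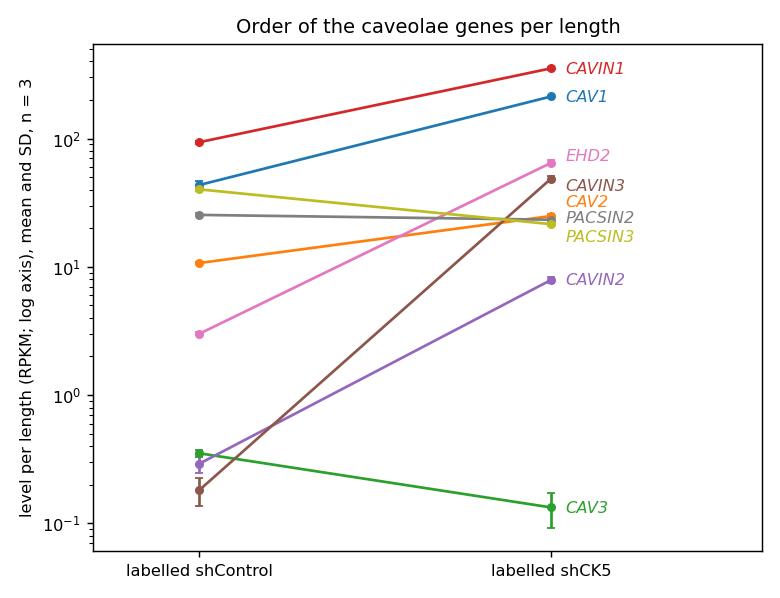
Mean level per length (RPKM, log axis) with SD bars (n = 3) in libraries labelled shControl and shCK5, 1 line per gene. CAVIN1 and CAV1 stay on top, CAVIN3 and EHD2 cross the pacsins, and CAV3 ends lowest at 0.133 RPKM.

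The sum of the 9 levels rose from 212.3 to 221.1 RPKM in the shControl libraries to 744.3 to 769.1 RPKM in shCK5, and its makeup differed. CAVIN1 held a similar share throughout, 42.7% to 43.9% in shControl and 46.3% to 47.0% in shCK5. The share of PACSIN3 shrank most among the abundant members, from 18.1% to 18.9% in shControl down to 2.76% to 2.94% in shCK5. EHD2 went from 1.31% to 1.43% up to 8.33% to 8.78%, and CAVIN3 from at most 0.103% up to 6.24% to 6.81%.

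Ratios of one member to another, taken within a library, do not depend on the scaling between libraries. In shControl, CAV2 stood at 24.7% of CAV1 per length of merged exons and in shCK5 at 11.7%, with log2 ratios of -1.96, -2.11 and -1.97 against -3.03, -3.14 and -3.11. With the longest transcript as length, the same shares were 40.7% and 19.3%. CAVIN1 to CAV1, the 2 core coat genes, moved least, with mean log2 ratios of 1.11 ± 0.11 and 0.73 ± 0.039. The minor cavins gained on CAVIN1: CAVIN3 went from 0.194% to 13.8% of it and CAVIN2 from 0.31% to 2.24%. EHD2 went from 6.92% to 30.4% of CAV1, and CAV3 from 0.821% to 0.0625% of it. PACSIN3 went from 158% to 91.9% of PACSIN2, so that the order of the pacsins was turned. In each of the 7 pairs the groups did not overlap, and the exact permutation test (two-sided, 3 against 3 libraries) gave p = 0.1, the smallest it can give, and also 0.1 after Benjamini-Hochberg adjustment over the 7 pairs. The permutation test can therefore not call any of these differences at 0.05.

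**Figure D4:**
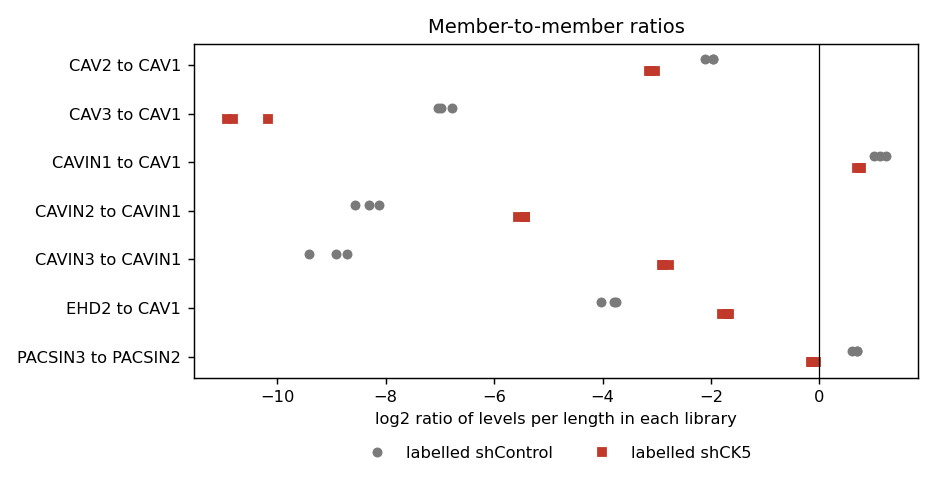
Log2 ratio of the levels per length of 7 member pairs (horizontal axis), with circles for libraries labelled shControl and squares for those labelled shCK5. No pair overlaps between groups, CAVIN3 to CAVIN1 moves furthest (from a mean of -9.01 to -2.86) and CAVIN1 to CAV1 least.

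Relatives of the coat and neck genes moved in both directions. Of 6 genes listed as paralogs and neck proteins, 4 rose and 2 fell (median log2 fold change 0.58). The receptor tyrosine kinase-like gene ROR1, whose product is known to hold CAVIN1 and CAV1 together, rose from 13.5 ± 0.102 to 50.6 ± 1.21 CPM, and EHD4 rose from 44.3 ± 1.68 to 126.4 ± 3.79 CPM. EHD1, the most abundant of the EHD genes listed, rose from 253.5 ± 2.38 to 432.6 ± 3.35 CPM (named after its values were seen). PACSIN1, the neuronal pacsin, fell from 17.8 ± 0.604 to 1.38 ± 0.14 CPM and EHD3 from 6.27 ± 1.01 to 2.98 ± 0.0556 CPM. All 3 pacsin genes were thus lower in shCK5, whereas among the EHD genes EHD1, EHD2 and EHD4 were higher and EHD3 lower. CAVIN4, the muscle cavin listed as MURC, had 342 counts in shControl and 453 in shCK5 over 3 libraries each. It passed the test (log2 fold change 0.39, adjusted p = 0.038), but its groups overlapped. In 6 of 12 alternative fits CAVIN4 was not called (adjusted p of 0.0127 to 0.17 over the 12, edgeR, DESeq2 or limma): with library size alone, with DESeq2, and without shControl replicate 1 or 3 or shCK5 replicate 1 or 2.

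Genes that tie caveolae to signalling and to actin rose in 9 of 13 tested members, fell in 3 and did not pass in 1 (14 listed; median 0.50). The largest rise was that of PRKCA, protein kinase C alpha, from 16.8 ± 0.644 to 276.7 ± 2.16 CPM (log2 fold change 4.05). NOS3, the endothelial nitric oxide synthase that CAV1 binds and inhibits, followed in fold but stayed under 1 CPM (0.0914 ± 0.0421 and 0.749 ± 0.0615). FLNA, filamin A, which anchors caveolae to actin, rose from 3650 ± 87.2 to 5066 ± 107 CPM (named after its values were seen). YES1, a Src-family kinase, fell from 317.7 ± 5.05 to 82.4 ± 2.5 CPM, and the adenylyl cyclase gene ADCY6 from 52.9 ± 2.33 to 35.7 ± 1.37 CPM. SRC, whose product phosphorylates CAV1, did not pass, at 46.5 ± 2.56 and 48.0 ± 1.94 CPM.

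Other membrane routes and lipids gave smaller medians than the caveolae genes. Of 5 tested flotillin and stomatin genes (6 listed), 3 rose, 1 fell and FLOT2 did not pass (median 0.51, or 0.77 with no filter on low counts, which adds STOML3). FLOT1, the most abundant gene of this list, rose from 232.5 ± 1.74 to 330.1 ± 8.17 CPM. STOML1 rose from 5.09 ± 0.0884 to 14.6 ± 0.334 CPM and STOML2 from 75.2 ± 0.806 to 151.4 ± 5.27 CPM, while STOM, stomatin, fell from 37.9 ± 2.15 to 6.001 ± 0.502 CPM. Clathrin-mediated endocytosis genes rose in 17 of 20 tested members (22 listed), fell in 2 and SNX9 did not pass (median 0.63). BIN1, amphiphysin II, rose from 5.36 ± 0.418 to 53.2 ± 1 CPM and the adaptor subunit AP2B1 from 78.1 ± 3.01 to 318.5 ± 7.16 CPM, whereas CLTCL1 and EPS15 fell by 0.48 and 0.35 on the log2 scale. Sphingomyelin synthesis genes, which supply a main caveolar lipid, rose in 10 of 13 tested members (14 listed), fell in 2 and CERS5 did not pass (median 0.84). The ceramide synthase gene CERS3 (2.03) and the sphingomyelin synthase gene SGMS2 (1.80) rose most. CERS3 stayed under 1 CPM (0.151 ± 0.0786 and 0.618 ± 0.176), and SGMS2 rose from 0.951 ± 0.0964 to 3.325 ± 0.461 CPM. CERS4 fell from 41.3 ± 2.38 to 3.84 ± 0.0671 CPM and CERS6 from 29.7 ± 1.41 to 19.8 ± 0.199 CPM.

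**Figure D5:**
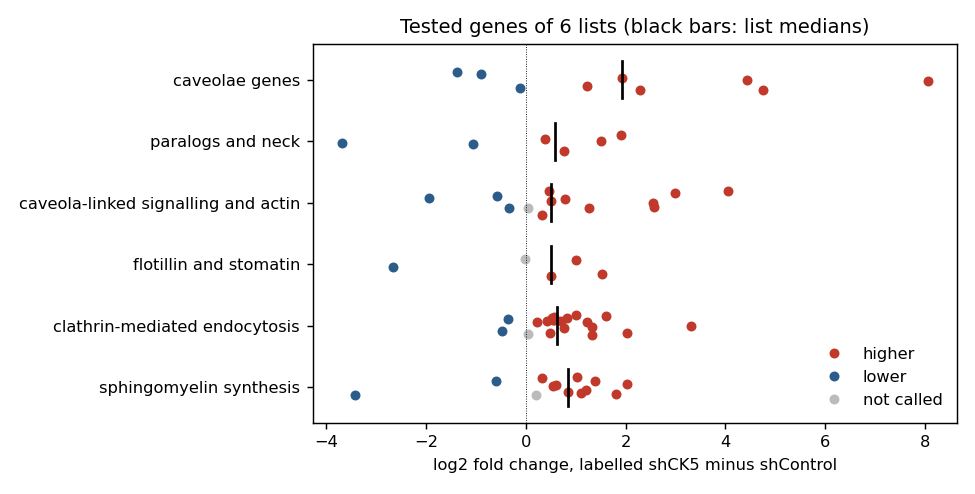
Log2 fold change of each tested gene (labelled shCK5 minus shControl) in the caveolae genes and 5 related lists, coloured by call, with black bars at the list medians; vertical scatter within a list carries no value. The caveolae genes have a median of 1.92 and the other lists medians of 0.50 to 0.84.

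Markers of further cell types were summed in the same libraries, and their part in these results was not tested. Endothelial markers summed to 6.16 to 8.28 CPM in shControl and 120.4 to 128.7 CPM in shCK5, of which ESAM alone made 118.3 ± 3.97 CPM. Of 7 endothelial markers tested, 4 rose (ESAM, PECAM1, KDR and CLDN5) and 3 fell (CDH5, VWF and TEK). PECAM1 rose from 2.21 ± 0.688 to 4.23 ± 0.434 CPM, and CDH5 fell from 1.30 ± 0.158 to 0.0348 ± 0.0136 CPM. Of the 10 endothelial markers listed, 6 were below 1 CPM in all libraries. Adipocyte markers summed to 7.61 to 7.83 CPM in shControl and 3.11 to 3.53 CPM in shCK5, with FABP4 at 0 throughout, and all 4 tested fell. Fibroblast markers fell in sum, from 533.9 to 535.3 CPM down to 32.8 to 34.3 CPM, mainly through FBLN1, and DCN had 2 counts in shControl and none in shCK5. Of 3 fibroblast markers tested, 1 rose (PDGFRB, from 0.476 ± 0.184 to 4.36 ± 0.301 CPM) and 2 fell (FBLN1 and COL1A1). Among those too low to test, LUM had 0 counts in shControl and 20 in shCK5, and COL1A2 had 6 and 24. PDGFRA went the other way, with 29 counts in shControl and 0 in shCK5, as did COL3A1, with 32 and 4. Leukocyte markers summed to 16.3 to 19.1 CPM in shControl and 2.89 to 3.82 CPM in shCK5, with CD68 at 0 throughout, and of 4 tested, 3 fell and 1 did not pass.

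The genes whose profile over the 6 libraries lay nearest to that of CAV1, by root mean square distance of log2 CPM values centred on their mean, were RGS10 (0.0261), F3 (0.0277) and SCML1 (0.0332). Like CAV1, each had its highest shControl value in replicate 2, which the choice by distance over these same libraries favours. F3, the tissue factor gene, had 97.1, 112.1 and 93.8 CPM in shControl and 487.6, 485.0 and 487.1 CPM in shCK5. Nearest to CAVIN1 were GBF1 (0.0231), MAP2K3 (0.024) and UHRF1 (0.0257). With 2 groups of 3 libraries this likeness reflects mostly the size of the group difference.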

How the data were processed

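RNA was sequenced in 3 libraries per group, with group and replicate number read from each title. The authors deposited whole-number counts, 1 row per gene name, without normalization. Per the submitters' processing notes, cutadapt, STAR, SAMtools and Cufflinks were used with build GRCh38; for the counting program, the strand setting and the annotation, the sources used here give nothing. Of counts above 20, 64% were even; whether fragments were counted once per mate was not tested.

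The filter on low counts was filterByExpr of edgeR 4.0.16 (R 4.3.3), followed by TMM scaling (factors 0.9499 to 1.056) and the quasi-likelihood test with Benjamini-Hochberg adjustment (threshold 0.05). The SE is the one implied by the F statistic. Levels are CPM on TMM-scaled library sizes; RPKM used merged exons of GENCODE release 29. Ratios used a pseudocount of 0.5. The fit was also run on simulated data in which few genes changed, unlike here, so that run cannot test the scaling used. Alternatives used limma 3.58.1 and DESeq2 1.42.0, other scalings, no filter, a replicate block and leaving out each library. Libraries of a group differed by more than counting noise (chi-square per degree of freedom of at least 4.04). RefSeq promoter windows matched 6 of the 9 genes (not CAVIN1, CAVIN3 or PACSIN3).

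Every member was named; from each list, the 2 largest and 2 smallest called changes and those not called; of neighbours, the nearest on each side; of genes like CAV1 and CAVIN1, the nearest 3 with a mean of at least 1 CPM. Members, lists and rules were chosen with earlier results of these data known. KRT5 and the other marker genes served as checks.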

Additional observations from a re-analysis of the deposited data

How the results depend on the processing

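All 9 caveolae genes kept their direction and stayed called under the 12 alternatives fitted (2 scalings, no filter, DESeq2, limma-voom, a replicate block and 6 fits that each left out 1 library). Log2 fold changes ranged from 2.16 to 2.36 for CAV1, 1.08 to 1.26 for CAV2, -1.66 to -1.24 for CAV3, 1.78 to 1.95 for CAVIN1, 4.62 to 4.89 for CAVIN2, 7.89 to 8.26 for CAVIN3, 4.30 to 4.48 for EHD2, -0.26 to -0.10 for PACSIN2 and -1.04 to -0.87 for PACSIN3. The largest adjusted p was 0.0109, for PACSIN2. Of 348 recomputed counts of called genes, list medians and member fold changes, 347 kept their direction and call or, for counts, stayed within 1.5 times. The exception was the flotillin and stomatin list, in which 2 genes rather than 1 were called lower when libraries were scaled by size alone. That scaling also called SNX9 lower, so that 3 clathrin-mediated endocytosis genes rather than 2 were lower, a count still within 1.5 times. With a replicate block, 7918 genes were called higher and 8008 lower, against 8012 and 8165 without it, and no call of a member changed. Deviations of same-numbered libraries were not correlated (r of -0.00635 to 0.00654). This shows no deviation shared by number, but cannot tell whether same-numbered libraries were prepared together. The group differences in ratios between members kept their sign with a pseudocount of 1 and without each library. Levels per length depended on the length used, which moved 14 of 18 group means by more than 1 SD, and on the scaling, since library size alone moved 11 of 18. For CAVIN1 and CAVIN2 the merged exons and the longest transcript are equally long, so the choice of length could not move their means. CAV3, at 15 to 56 counts a library, is the member that depth limits most.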
